A study of Mus musculus with 8 samples.

Results

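The genes described here are the replication-dependent histone genes of the mouse, taken as every row of the expression table whose symbol begins with Hist1h, Hist2h, Hist3h or Hist4h. There were 69 such rows among 24940, and 9 of them reached 1 RPKM (reads scaled to the exon length of a gene and to the reads of the library) in at least 2 of the 8 libraries, the level set for testing. The cells were bone marrow-derived macrophages grown from C57BL/6 mice aged 6 to 8 weeks, and every group received M-CSF, which macrophages need to grow and survive, at 30 ng/ml. The 4 groups, with 2 libraries each, were TMBIM6sh with RANKL, TMBIM6sh without RANKL, NCsh with RANKL and NCsh without RANKL. RANKL, the cytokine that turns these precursors into bone-resorbing osteoclasts, was given at 100 ng/ml for 24 h, and the groups without it are known from the sample titles, since the treatment text is the same for every sample. TMBIM6sh is a short hairpin RNA against Tmbim6, a membrane protein of the endoplasmic reticulum, and NCsh is the other hairpin label, which the labels do not spell out. The labels name 1 hairpin per side, and what it does beyond lowering Tmbim6 cannot be told apart from the loss of Tmbim6. The labels do not say that duplicates came from separate animals or cultures, so p-values measure only the spread between these libraries, which may be technical.

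The series asked how loss of TMBIM6 bears on osteoclast formation. Tmbim6 itself was at 10.0 to 11.7 RPKM in TMBIM6sh libraries and at 309 to 334 RPKM in NCsh libraries. Each library held 25475000 to 28595000 tags, so that 1 tag over a row of 450 bases was worth 0.0777 to 0.0872 RPKM. The 9 macrophage markers summed to 7730 to 8821 RPKM in TMBIM6sh libraries and to 9418 to 11016 RPKM in NCsh libraries, and all 9 were tested. Lyz2, the macrophage lysozyme, made most of that sum, at 5280 to 6172 RPKM in TMBIM6sh and 6799 to 8071 RPKM in NCsh libraries, and was not called (adjusted p = 0.0823 with RANKL and 0.145 without). Among the other macrophage markers, the ranges of Spi1 (226 to 251 RPKM in TMBIM6sh and 203 to 232 RPKM in NCsh) and Adgre1 (737 to 901 and 815 to 890 RPKM) overlapped. Of the 9, 2 were called lower and 0 higher in TMBIM6sh with RANKL, beside 19.7% and 8.93% of all genes. Without RANKL 0 were called either way. With RANKL 4 of the 9 fell and 0 rose under each hairpin, beside 6.89% of all genes lower in TMBIM6sh and 3.98% in NCsh. Erythroid markers summed to 0 to 0.103 RPKM, with Hba-a1 and Hbb-bs at 0 in all libraries. Among markers of the other cell types, the neutrophil gene S100a8 and the B cell gene Cd79b moved with the hairpin. S100a8 was at 11.3 to 15.4 RPKM in TMBIM6sh libraries and 22.3 to 27.7 RPKM in NCsh libraries and made nearly all of the sum of the 7 neutrophil markers, of which Ly6g was at 0 and S100a9 at 0 in 7 of 8 libraries. The 6 lymphocyte markers summed to 0.47 to 1.27 RPKM in TMBIM6sh and 1.09 to 3.13 RPKM in NCsh libraries. The 5 stromal markers summed to 2.57 to 3.31 RPKM in TMBIM6sh and 2.03 to 2.59 RPKM in NCsh libraries, which overlap. Col1a1, a collagen gene and one of them, had 0.887 to 1.425 RPKM in TMBIM6sh and 0.561 to 0.887 RPKM in NCsh libraries and was not called (adjusted p = 0.279 with RANKL and 0.1004 without). The part of these marker genes in the histone values was not tested.

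Replication-dependent histone genes supply the core histones H2A, H2B, H3 and H4 and the linker histone H1 that package newly made DNA, and their mRNAs build up in S phase and are degraded when DNA synthesis stops. They are unusual among mRNAs in that most end not in a poly(A) tail but in a conserved stem-loop, which is bound by SLBP and cut just downstream with the help of the U7 snRNP. Some of these genes also make polyadenylated mRNA from a signal further downstream, which is known in differentiated cells that no longer divide. The genes lie in clusters, and H2A and H2B genes often form pairs that are transcribed away from each other from a shared stretch of DNA.

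The stem-loop is shown for the 7 tested genes that have one, because it decides how their mRNA ends and where the counted region of each row stops. The sequences are from GENCODE M21 transcripts on mm10, 5′ to 3′ with U written as T, and capitals mark the 16 bases of the stem-loop, with up to 5 bases on each side in lower case.
Hist1h1c: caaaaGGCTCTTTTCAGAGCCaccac
Hist1h4i: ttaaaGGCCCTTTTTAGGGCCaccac
Hist3h2a: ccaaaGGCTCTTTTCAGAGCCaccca
Hist2h2ac: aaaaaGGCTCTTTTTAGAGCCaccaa
Hist1h4h: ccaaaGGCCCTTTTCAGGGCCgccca
Hist1h4m: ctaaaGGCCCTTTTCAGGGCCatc
Hist1h2be: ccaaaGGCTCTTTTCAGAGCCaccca
The core was identical in Hist1h1c, Hist3h2a and Hist1h2be, a linker histone, an H2A and an H2B gene, and 26 of the 69 genes carried it. Hist1h4h and Hist1h4m, both H4 genes, shared another core with 5 more H4 genes.

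A stem-loop of this form was found in a transcript of 46 of the 69 genes, against 87 of 58797 protein-coding transcripts in the annotation, or 0.148%. It was found in 7 of the 9 tested genes and in 39 of the 60 others. The 2 tested genes without a match were Hist1h2bc, whose GENCODE transcript has 2 exons and 1156 bases, and Hist2h2bb, whose transcript of 381 bases holds no sequence after the coding part. In 4 of the 7 tested genes with a stem-loop the GENCODE transcript ran more than 100 bases past it, by 840 bases in Hist1h1c, 330 in Hist1h4i, 1643 in Hist3h2a and 1861 in Hist1h2be, as did the transcripts of 19 of the 39 genes below the level for testing. The rows of the expression table stopped 4 to 6 bases past the stem-loop in all 7, so tags from a longer, polyadenylated end would not be counted there. The sequence AATAAA, the usual poly(A) signal, lay in the last 50 bases of a transcript of 3 of the 9 tested genes, Hist1h1c, Hist3h2a and Hist1h2be, and in 12 of the 60 others. In Hist1h2be it was in a processed transcript without a stem-loop, and not in the protein-coding transcripts that ran 1861 bases past it. Counted by transcript and not by gene, 40.5% of all protein-coding transcripts held it there. The labels name total RNA and do not say whether libraries were made from poly(A) RNA, so the form of histone mRNA that was sequenced is not known from these data.

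**Figure D1:**
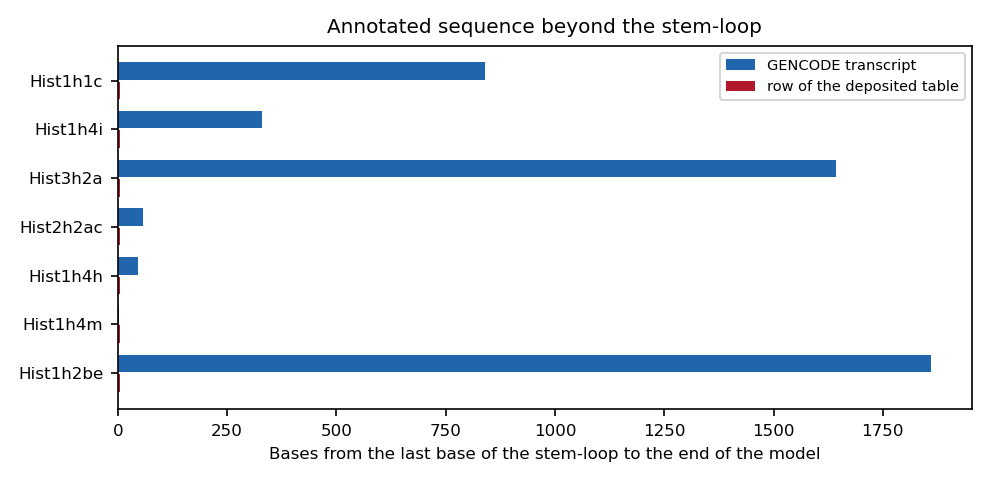
Bases from the last base of the stem-loop to the end of the gene model (horizontal axis) in the 7 tested histone genes that have one, in the GENCODE transcript (blue) and in the row of the deposited table (red). The GENCODE model runs 330 to 1861 bases further in 4 genes, while each row of the table stops 4 to 6 bases after the stem-loop.

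Most of the 69 rows were close to empty. Of the 60 rows not tested, 7 had no tag in any library, which allows up to 3 tags or 0.233 to 0.262 RPKM per library over 450 bases, for counting error only. Another 53 had a tag in at least 1 library and 16 had one in every library, and the highest value among them was 1.48 RPKM. The rows at 0 included Hist1h1t, Hist1h2aa and Hist1h2ba, which are known as testis forms. The tested share was 13% of the histone rows, against 44.3% of all rows and 50% of protein-coding rows. Over the 8 libraries the 69 rows took 9471 tags, of which 7958 fell on the 9 tested rows. Hist1h2bc and Hist1h1c alone made 42.8% to 57.7% of the summed histone RPKM of a library.

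By family, 1 of 6 H1 rows, 2 of 19 H2A rows, 3 of 19 H2B rows, 0 of 12 H3 rows and 3 of 13 H4 rows were tested. The H3 rows had means of 0.0191 to 0.444 RPKM and never exceeded 0.79 RPKM in a library. By name, 55 rows were Hist1 on chromosome 13, 10 Hist2 on chromosome 3, 3 Hist3 on chromosome 11 and 1 Hist4 on chromosome 6. Of the Hist1 rows, Hist1h2al (chr13:51200084-51203066) lay apart from the others, which all started at or before base 23934462. Just inside the level for testing was Hist1h2be, with 1.07 RPKM in 1 NCsh library with RANKL and 1.03 RPKM in 1 TMBIM6sh library without it. Just outside were Hist1h1e, the linker histone H1.4, and Hist1h4a, each at 1 RPKM or more in 1 library, with 1.48 and 1.04 RPKM there. Hist1h4m passed through 3 libraries that were all NCsh, so its place among the 9 depends on the group in which it was high. Hist2h2ac reached 1 RPKM in 5 libraries, which were every NCsh library and a TMBIM6sh library without RANKL at 1.58 RPKM. Its place too rests mostly on the group in which it was high.

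**Figure D2:**
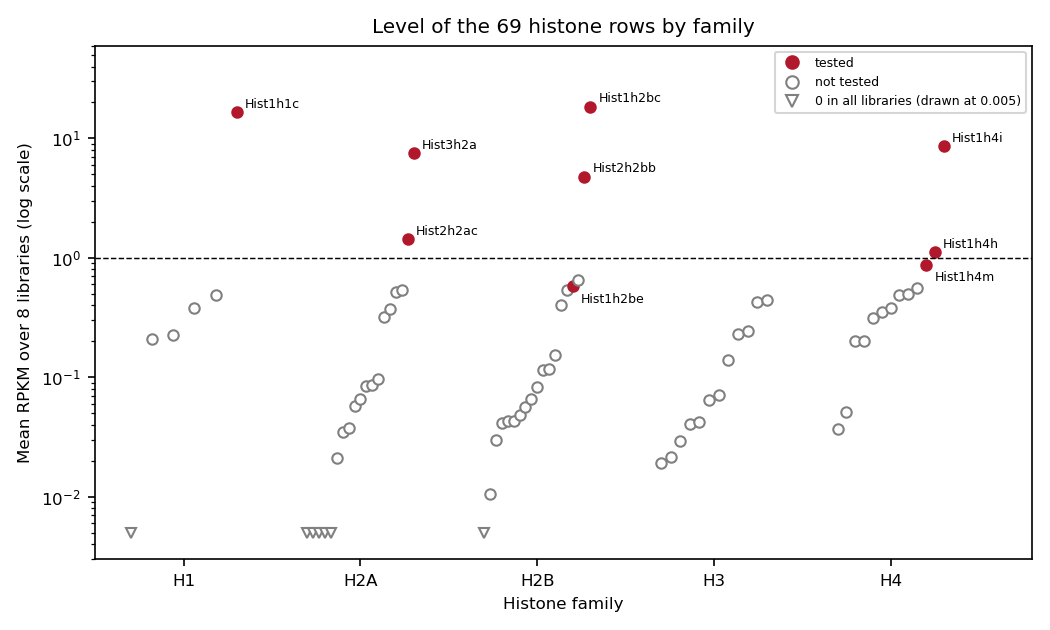
Mean RPKM over the 8 libraries (log axis) of each of the 69 histone rows, by family, with tested rows filled and named, rows below the level for testing open, and rows at 0 everywhere drawn as triangles at 0.005. The dashed line marks 1 RPKM; 7 of the 9 tested genes have a mean above it and all 12 H3 rows lie below it.

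Copies of these genes are close to identical, and 9 rows were marked in the table as mapping to more than 1 place, none of them tested. These same 9 rows and Hist1h4m form 5 pairs that overlap each other. Of these rows only Hist1h4m was tested, and it shares 366 of its 402 exon bases with the row of Hist1h4n, so the values of these H4 genes are uncertain. Tags were counted on both strands, so tags from a transcript on the opposite strand cannot be told apart from those of the gene.

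Of the linker histones, only Hist1h1c, which encodes H1.2, was tested. It lies on mm10 at chr13:23738807-23739531 on the + strand and held 2601 tags. Its level was 13.8 and 9.76 RPKM in TMBIM6sh libraries with RANKL, 16.4 and 15.5 RPKM in TMBIM6sh libraries without RANKL, 17.9 and 18.4 RPKM in NCsh libraries with RANKL, and 16.9 and 23.6 RPKM in NCsh libraries without RANKL. The TMBIM6sh libraries lay below the NCsh libraries in each state, and the lowest value of all was a TMBIM6sh library with RANKL.

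Of the H2A genes, Hist3h2a was the highest, a single gene on chromosome 11 (chr11:58954685-58955192, + strand, 823 tags). It had 7.24 and 6.98 RPKM in TMBIM6sh libraries with RANKL, 6.18 and 7.57 RPKM in TMBIM6sh libraries without RANKL, 7.54 and 6.23 RPKM in NCsh libraries with RANKL, and 9.80 and 8.82 RPKM in NCsh libraries without RANKL. The NCsh libraries without RANKL were above all 6 others, which overlapped. Hist2h2ac, the other tested H2A gene (chr3:96220413-96220880, − strand, 147 tags), had 0.585 and 0.674 RPKM in TMBIM6sh libraries with RANKL, 1.58 and 0.754 RPKM in TMBIM6sh libraries without RANKL, 1.27 and 1.66 RPKM in NCsh libraries with RANKL, and 1.79 and 3.24 RPKM in NCsh libraries without RANKL. The libraries of TMBIM6sh lay below those of NCsh in each state.

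Of the H2B genes, Hist1h2bc was the most abundant histone row of the table by mean RPKM (chr13:23684199-23692480, + strand, 2894 tags), and its row spans an intron, which is unusual for a histone gene. It had 17.0 and 20.1 RPKM in TMBIM6sh libraries with RANKL, 22.5 and 22.9 RPKM in TMBIM6sh libraries without RANKL, 17.7 and 12.9 RPKM in NCsh libraries with RANKL, and 13.6 and 21.0 RPKM in NCsh libraries without RANKL. The duplicates of NCsh differed widely and the hairpins overlapped with RANKL. Hist2h2bb (chr3:96269700-96270192, + strand, 508 tags) had 3.57 and 3.995 RPKM in TMBIM6sh libraries with RANKL, 3.22 and 5.80 RPKM in TMBIM6sh libraries without RANKL, 5.77 and 4.78 RPKM in NCsh libraries with RANKL, and 5.94 and 5.22 RPKM in NCsh libraries without RANKL. With RANKL the TMBIM6sh libraries lay below the NCsh libraries, and without RANKL the hairpins overlapped. Hist1h2be, with 55 tags in all, had 0.176 and 0.62 RPKM in TMBIM6sh libraries with RANKL, 0.332 and 1.03 RPKM in TMBIM6sh libraries without RANKL, 1.07 and 0.079 RPKM in NCsh libraries with RANKL, and 0.598 and 0.714 RPKM in NCsh libraries without RANKL, so that its extremes were duplicates of 1 group.

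Of the H4 genes, which all encode the same protein, Hist1h4i led (chr13:22040960-22041362, − strand, 749 tags). It had 11.3 and 11.2 RPKM in TMBIM6sh libraries with RANKL, 7.80 and 11.5 RPKM in TMBIM6sh libraries without RANKL, 6.67 and 6.47 RPKM in NCsh libraries with RANKL, and 6.99 and 7.62 RPKM in NCsh libraries without RANKL. All 4 TMBIM6sh libraries lay above all 4 NCsh libraries. Hist1h4h had 0.36 and 1.18 RPKM in TMBIM6sh libraries with RANKL, 0.765 and 1.95 RPKM in TMBIM6sh libraries without RANKL, 0.545 and 1.21 RPKM in NCsh libraries with RANKL, and 1.66 and 1.22 RPKM in NCsh libraries without RANKL, so that its groups overlapped except for RANKL in NCsh. Hist1h4m had 0.871 and 0.487 RPKM in TMBIM6sh libraries with RANKL, 0.365 and 0.698 RPKM in TMBIM6sh libraries without RANKL, 1.07 and 1.04 RPKM in NCsh libraries with RANKL, and 1.503 and 0.959 RPKM in NCsh libraries without RANKL, with TMBIM6sh below NCsh throughout.

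**Figure D3:**
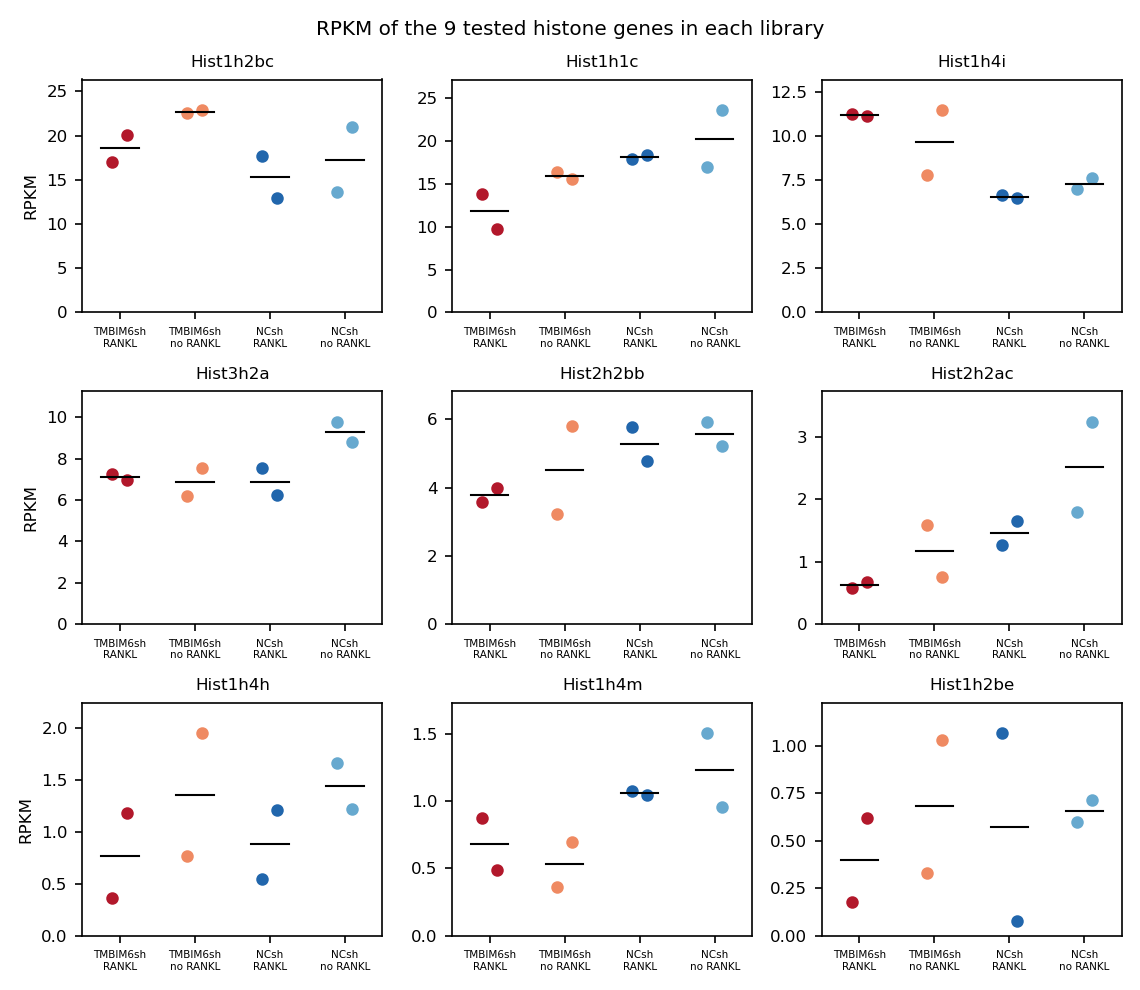
RPKM of the 9 tested histone genes in each library (points) and the mean of the 2 libraries of a group (bars), with a separate linear axis from 0 for each gene. The 4 TMBIM6sh libraries sit above the 4 NCsh libraries for Hist1h4i and below them for Hist1h1c, Hist2h2ac and Hist1h4m, state by state, while Hist3h2a is highest in NCsh without RANKL.

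Below the level for testing, 5 further rows were among the 14 with the highest means. The H2B gene Hist2h2be has a row of 2664 bases and so held 380 tags at a low RPKM: 0.336 and 0.397 RPKM in TMBIM6sh libraries with RANKL, 0.551 and 0.474 RPKM in TMBIM6sh libraries without RANKL, 0.796 and 0.958 RPKM in NCsh libraries with RANKL, and 0.822 and 0.908 RPKM in NCsh libraries without RANKL. All 4 TMBIM6sh libraries were below all 4 NCsh libraries. The H2A rows Hist2h2aa1 and Hist2h2aa2 overlap and share tags. Hist2h2aa1 had 0.352 and 0.283 RPKM in TMBIM6sh libraries with RANKL, 0.266 and 0.19 RPKM in TMBIM6sh libraries without RANKL, 0.994 and 0.696 RPKM in NCsh libraries with RANKL, and 0.683 and 0.824 RPKM in NCsh libraries without RANKL. Hist2h2aa2 had 0.328 and 0.33 RPKM in TMBIM6sh libraries with RANKL, 0.248 and 0.177 RPKM in TMBIM6sh libraries without RANKL, 0.993 and 0.649 RPKM in NCsh libraries with RANKL, and 0.637 and 0.768 RPKM in NCsh libraries without RANKL. In both rows the TMBIM6sh libraries again lay below the NCsh libraries. Hist1h4n, which overlaps Hist1h4m, had 0.535 and 0.323 RPKM in TMBIM6sh libraries with RANKL, 0.202 and 0.386 RPKM in TMBIM6sh libraries without RANKL, 0.972 and 0.673 RPKM in NCsh libraries with RANKL, and 0.831 and 0.579 RPKM in NCsh libraries without RANKL, again with no overlap of the hairpins. The H2B gene Hist1h2bg had 0.843 and 0.764 RPKM in TMBIM6sh libraries with RANKL, 0.319 and 0.913 RPKM in TMBIM6sh libraries without RANKL, 0.17 and 0.379 RPKM in NCsh libraries with RANKL, and 0.246 and 0.684 RPKM in NCsh libraries without RANKL. Its TMBIM6sh libraries lay above the NCsh libraries with RANKL, and the hairpins overlapped without it.

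Summed over all 69 rows, histone RPKM was 64.1 ± 0.781 in TMBIM6sh with RANKL, 71.6 ± 5.69 in TMBIM6sh without RANKL, 70.4 ± 4.06 in NCsh with RANKL and 77.3 ± 8.28 in NCsh without RANKL (SD, n = 2 each). The sum was lower with RANKL under both hairpins by mean, and the 2 NCsh groups overlapped. The rows not tested summed to 9.68 and 8.55 RPKM in TMBIM6sh with RANKL, 8.32 and 7.85 RPKM in TMBIM6sh without RANKL, 13.7 and 14.8 RPKM in NCsh with RANKL, and 12.6 and 10.7 RPKM in NCsh without RANKL. Every TMBIM6sh library lay below every NCsh library there, but over the 51 of these rows with 1 copy the ranges overlapped, at 6.21 to 7.99 RPKM in TMBIM6sh and 7.26 to 11.8 RPKM in NCsh libraries. The Hist2 rows on chromosome 3 summed to 6.06 to 8.64 RPKM in TMBIM6sh and 10.7 to 12.6 RPKM in NCsh libraries, without overlap. Of these 10 rows, 4 had more than 1 copy and overlap in pairs, so the same tags can enter this sum more than once. A sum without them was not made. The Hist1 rows overlapped, at 49.3 to 59.4 RPKM in TMBIM6sh and 49.9 to 61.2 RPKM in NCsh libraries. Within 1 state, 2 libraries against 2 give a two-sided exact permutation p of at least 0.333, and the sums are given as a description. In bulk RNA, fewer cells in S phase and less histone mRNA per cell cannot be told apart.

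RANKL in TMBIM6sh libraries changed none of the 9 histone genes by the test, which was limma on log2(RPKM + 1) with p-values adjusted over 11040 genes and a threshold of 0.05. Over all genes 8.53% were called higher and 6.89% lower in this comparison. One histone gene had an unadjusted p under 0.05, Hist1h1c, at a mean of 11.8 RPKM with RANKL and 16.0 RPKM without (log2 difference −0.43, SE 0.162, adjusted p = 0.112). Its adjusted p was 0.0438 without the first TMBIM6sh library with RANKL, and 0.0478 and 0.0473 without the first or the second NCsh library without RANKL. The median log2 difference of the 9 was −0.25, against 0.02 over all genes tested, and 6 of the 9 differences were negative. Hist1h4i had a difference of 0.22 (SE 0.136, adjusted p = 0.336), and without the second TMBIM6sh library without RANKL, which had its highest value, it was 0.47 with an adjusted p of 0.0222.

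RANKL in NCsh libraries lowered 1 of the 9, Hist3h2a, and raised none. The background was 11% of genes called higher and 3.98% lower, or 1214 and 439 genes, and with libraries scaled by median ratios it was 787 and 850. Hist3h2a averaged 6.89 RPKM with RANKL and 9.31 RPKM without, a ratio of 0.740 (log2 difference −0.39, SE 0.111, adjusted p = 0.0437). The call rested close to the threshold: it was lost when either NCsh library with RANKL was left out, with adjusted p-values of 0.0507 and 0.230, when either NCsh library without RANKL was left out (0.153 and 0.0597), and when either TMBIM6sh library with RANKL was left out (0.0682 and 0.0679). All 9 differences were negative, with a median of −0.15 against 0.06 over all genes, though only 1 was called. Those of Hist1h1c, Hist1h2bc, Hist1h2be, Hist1h4m and Hist2h2bb were positive under at least 1 other setting. They reached 0.095, 0.14, 0.32, 0.072 and 0.043 there. The share of negative differences over all genes was not counted.

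The hairpins with RANKL gave the largest histone differences past the test. Hist1h4i was higher in TMBIM6sh, at 11.2 ± 0.0827 RPKM against 6.57 ± 0.144 RPKM in NCsh (SD, n = 2 each), a ratio of 1.71 (log2 difference 0.69, SE 0.136, adjusted p = 0.00482). Hist1h1c was lower in TMBIM6sh, at 11.8 ± 2.88 RPKM against 18.2 ± 0.329 RPKM in NCsh, a ratio of 0.649 (log2 difference −0.60, SE 0.162, adjusted p = 0.0206). The other 7 of the 9 did not pass, and the background was 8.93% of genes called higher and 19.7% lower, or 986 and 2171 genes, and 1609 and 1620 under median-ratio scaling. The difference of Hist1h4i passed under each of the 15 other settings tried, though 1 of these only dropped histone rows of more than 1 copy and could not change it. That of Hist1h1c did not pass without the second TMBIM6sh library with RANKL, which had its lowest value (log2 difference −0.37, adjusted p = 0.149), nor without either NCsh library with RANKL (0.0813 and 0.0885). Hist2h2ac differed by −0.59 (adjusted p = 0.0811) and Hist2h2bb by −0.39 (adjusted p = 0.154). Both passed in a fit of the 4 libraries alone (0.0268 and 0.0388), Hist2h2ac also without either NCsh library without RANKL (0.0440 and 0.0457), and Hist2h2bb without either TMBIM6sh library without RANKL (0.0338 and 0.0356). The median of the 9 was −0.11 against −0.07 over all genes.

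The hairpins without RANKL differed in 1 of the 9 genes by the test. Hist3h2a was lower in TMBIM6sh, at 6.87 ± 0.981 RPKM against 9.31 ± 0.694 RPKM in NCsh (SD, n = 2 each), a ratio of 0.739 (log2 difference −0.39, SE 0.111, adjusted p = 0.0297). None was called higher, and the background was 10.4% of genes called higher and 13.8% lower. The call was lost without the first TMBIM6sh library without RANKL (adjusted p = 0.212), without the first NCsh library without RANKL (0.121) and when the other 4 libraries were kept out of the fit (0.054). Hist2h2ac (log2 difference −0.69, adjusted p = 0.0532), Hist1h4m (−0.54, 0.0622) and Hist1h4i (0.34, 0.104) had unadjusted p-values under 0.05 and did not pass the adjustment. Without the first TMBIM6sh library Hist1h4i differed by 0.59 with an adjusted p of 0.00620, and Hist2h2ac by −0.97 with an adjusted p of 0.0346. Without the second TMBIM6sh library Hist2h2bb passed at −0.64 (0.0188). Without the first NCsh library Hist2h2ac passed at −0.995 (0.0170) and Hist1h1c at −0.54 (0.0372), and without the second Hist1h2bc at 0.70 (0.0161) and Hist1h4m at −0.72 (0.0499). The median of the 9 was −0.29 against −0.02 over all genes. Hist1h4m was tested only through NCsh libraries, and Hist2h2ac mostly through them. Their lower values in TMBIM6sh in either state, and their part in the medians between hairpins, are therefore a description only.

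**Figure D4:**
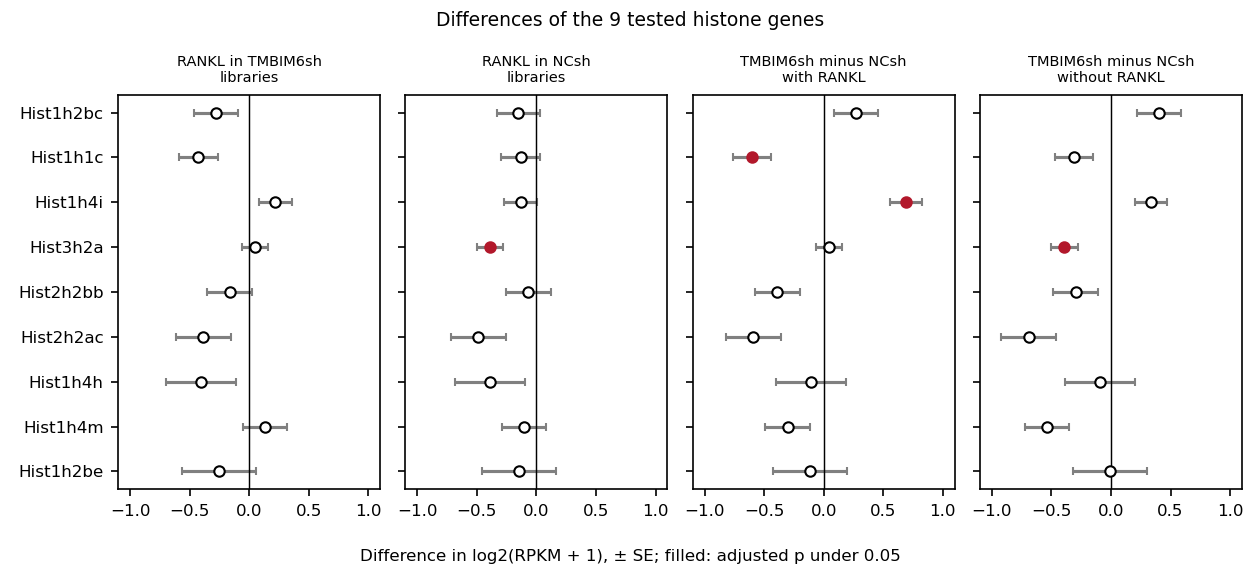
Difference in log2(RPKM + 1) of the 9 tested histone genes in the 4 comparisons (horizontal axes), with the standard error of limma as bars and filled points for an adjusted p under 0.05. Hist1h4i (0.69) and Hist1h1c (−0.60) are filled between hairpins with RANKL, and Hist3h2a (−0.39) is filled for RANKL in NCsh and between hairpins without RANKL.

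The change with RANKL was not shown to differ between hairpins for any of the 9 genes by limma's interaction term, for which 0% of all genes were called higher and 0.00906% lower. One had an unadjusted p under 0.05, Hist3h2a (log2 difference of the changes 0.44, SE 0.157, adjusted p = 0.609). The 2 comparisons that call Hist3h2a share the NCsh libraries without RANKL, where it was high.

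Genes known to be active in S phase, when these histones are made, were mostly higher with RANKL. Of 25 S phase genes, all tested, 21 rose and 1 fell with RANKL in TMBIM6sh, with a median log2 difference of 0.61, and 19 rose and 0 fell in NCsh, with a median of 0.54. The background was 8.53% of genes called higher and 6.89% lower in TMBIM6sh, and 11% and 3.98% in NCsh. Rrm2, a subunit of ribonucleotide reductase, had 28.6 and 29.8 RPKM in TMBIM6sh with RANKL against 13.8 and 13.7 RPKM without, and 36.1 and 38.2 RPKM in NCsh with RANKL against 19.6 and 19.1 RPKM without. Top2a, the topoisomerase of replicating chromosomes, rose by 1.08 in TMBIM6sh and 1.07 in NCsh on the log2 scale (adjusted p = 3.39e-05 and 7.14e-05). The member that fell was Pcna, the sliding clamp of DNA polymerase, in TMBIM6sh (log2 difference −0.30, adjusted p = 0.0111), a call lost without the first TMBIM6sh library with RANKL or without either TMBIM6sh library without RANKL.

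Between hairpins the S phase list lay lower in TMBIM6sh: 14 of 25 were lower and 0 higher with RANKL, with a median of −0.27, and 16 lower and 0 higher without RANKL, with a median of −0.37. Over all genes 19.7% were lower and 8.93% higher with RANKL, and 13.8% and 10.4% without. The proliferation marker Mki67 differed by −0.73 with RANKL and −0.88 without (adjusted p = 0.0002 and 8.09e-05). With RANKL the count was 7 without the first TMBIM6sh library with RANKL, and 9 without either NCsh library with RANKL. When libraries were scaled by median ratios, 12 were lower and 1 higher with RANKL.

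The genes listed as replication-independent histone genes include several that rose with RANKL. Their mRNAs carry poly(A) tails and are made outside S phase too, except that this does not hold for every H2afx mRNA. H2afz, which encodes H2A.Z, had 160 and 157 RPKM in TMBIM6sh with RANKL and 95.9 and 101 RPKM without, and 203 and 200.2 RPKM in NCsh with RANKL and 116 and 140 RPKM without. Its rise with RANKL was 0.68 in TMBIM6sh and 0.66 in NCsh on the log2 scale (adjusted p = 0.00051 and 0.00103). H1fx, the linker histone H1.10, rose by 1.45 and 1.27 (adjusted p = 0.000346 and 0.00107), and H2afx, the variant marked at DNA breaks, by 0.44 and 0.47 (0.00307 and 0.00246). In all, 3 of the 11 rose and 0 fell with RANKL in TMBIM6sh, and 4 rose and 0 fell in NCsh, where the fourth was Cenpa, the centromeric H3 variant (log2 difference 0.60, adjusted p = 0.0211). That call was lost with no filter (adjusted p = 0.0993), without either NCsh library with RANKL and without the first NCsh library without RANKL. In TMBIM6sh the counts were 4 and 1 without either NCsh library without RANKL and in a fit of the 4 libraries alone, where H3f3b, which encodes H3.3, passed as lower (log2 difference −0.21, adjusted p = 0.0211, 0.0207 and 0.0430, against 0.0711 in the fit of 8 libraries). The shares over all genes were 8.53% higher and 6.89% lower in TMBIM6sh, and 11% and 3.98% in NCsh.

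Between hairpins, 5 of the 11 were lower and 1 higher in TMBIM6sh with RANKL, and 4 lower and 1 higher without, where 19.7% and 13.8% of all genes were lower and 8.93% and 10.4% higher. Cenpa differed most, by −1.26 with RANKL and −1.02 without (adjusted p = 0.00026 and 0.000876), with 3.07 and 4.62 RPKM in TMBIM6sh with RANKL against 10.1 and 10.7 RPKM in NCsh with RANKL. The counts fell to 3, 2, 2 and 3 in all with RANKL when the first or second TMBIM6sh library with RANKL or the first or second NCsh library with RANKL was left out. Without RANKL they fell to 3 when the first or the second TMBIM6sh library without RANKL was left out, and also with no filter or with only the 4 libraries concerned.

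Slbp, which binds the stem-loop, was lower in TMBIM6sh in both states. It had 13.5 and 12.7 RPKM in TMBIM6sh with RANKL, 11.3 and 11.02 RPKM in TMBIM6sh without RANKL, 23.7 and 22.8 RPKM in NCsh with RANKL, and 17.1 and 19.5 RPKM in NCsh without RANKL. The hairpins did not overlap. The log2 difference was −0.78 with RANKL (SE 0.0756, adjusted p = 0.000104) and −0.66 without (SE 0.0756, adjusted p = 0.000292), and both passed under each of the 14 other settings tried. With RANKL Slbp rose in NCsh by 0.33 (adjusted p = 0.0180). That call was lost in a fit of the 4 libraries alone (0.0552) and under median-ratio scaling (0.0524). It was also lost without the first or second NCsh library with RANKL, at differences of 0.30 and 0.36. The same held without the first NCsh library without RANKL, at 0.24. In TMBIM6sh the difference of Slbp with RANKL was 0.21 (adjusted p = 0.0904).

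Of 22 genes that transcribe, cut or degrade histone mRNA, 20 were tested. Apart from Slbp, the only one called between hairpins was Coil, the scaffold of Cajal bodies, which was higher in TMBIM6sh by 0.61 with RANKL and 0.57 without (adjusted p = 0.00308 and 0.00513). The background between hairpins was 8.93% of genes called higher and 19.7% lower with RANKL, and 10.4% and 13.8% without. Snrpe and Snrpf, Sm proteins of the snRNPs, passed as higher with RANKL in a fit of the 4 libraries alone and without either NCsh library without RANKL, which gave 3 higher and 1 lower. There Snrpe differed by 0.36 (adjusted p = 0.00533, 0.00368 and 0.00360, against 0.0531 in the fit of 8 libraries) and Snrpf by 0.25 (0.0296, 0.0330 and 0.0329, against 0.0887). Without RANKL Snrpe passed at 0.57 without the second NCsh library without RANKL (0.00190) and at 0.37 under median-ratio scaling (0.0468). Npat, the coactivator of histone gene transcription, had 3.13 and 3.47 RPKM in TMBIM6sh with RANKL, 2.96 and 2.87 RPKM in TMBIM6sh without RANKL, 3.25 and 3.88 RPKM in NCsh with RANKL, and 2.92 and 2.82 RPKM in NCsh without RANKL, and passed in no comparison. With RANKL 4 of the 20 rose and 0 fell under each hairpin, among them Eri1, an exonuclease that trims the stem-loop end, beside 8.53% of all genes higher in TMBIM6sh and 11% in NCsh. The count in TMBIM6sh was 0 with no filter, 0 without the intensity trend, and 0 or 1 when any library other than the NCsh libraries without RANKL was left out. That in NCsh was 0 without the first NCsh library with RANKL, and 2 without the second or without either TMBIM6sh library without RANKL, 2 with no filter and 1 in a fit of the 4 libraries alone. Both were 1 under median-ratio scaling, which between hairpins with RANKL gave 4 higher and 1 lower. Rnu7, the U7 snRNA, was at 0 in all libraries, but its row holds only 24 bases. A value of 0 there says little about its level.

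The 25 histone chaperones, which carry histones to DNA and share Mcm2 with the S phase list, rose in 12 cases with RANKL in TMBIM6sh and in 13 in NCsh, and 0 fell, beside 8.53% and 11% of all genes called higher. Chaf1a, the large subunit of chromatin assembly factor CAF-1, had 8.87 and 8.20 RPKM in TMBIM6sh with RANKL against 4.99 and 5.02 RPKM without, and 13.1 and 12.6 RPKM in NCsh with RANKL against 7.50 and 7.39 RPKM without. Between hairpins 12 were lower and 1 higher in TMBIM6sh with RANKL, and 11 lower and 0 higher without, beside 19.7% and 13.8% of all genes called lower. With RANKL median-ratio scaling left 6 lower and 1 higher, and leaving out the first or second TMBIM6sh library or the first or second NCsh library with RANKL left 6, 8, 6 and 6 lower and 0 higher. Without RANKL leaving out either TMBIM6sh library without RANKL left 5 lower, and a fit of the 4 libraries concerned left 6.

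The 3 RNAs without a poly(A) tail that were tested beside the histones were called in 0 of the 5 comparisons by limma, and 0 had an unadjusted p under 0.05. Without either TMBIM6sh library without RANKL, 1 was called higher between hairpins with RANKL, and without the first of them 1 was called higher with RANKL in TMBIM6sh. The ribosomal RNA precursor Rn45s was at 9912 to 11780 RPKM in TMBIM6sh libraries and 9743 to 9982 RPKM in NCsh libraries, with ranges that overlap. Rmrp, the RNA of RNase MRP, was at 5.89 to 10.2 RPKM in TMBIM6sh and 6.13 to 8.57 RPKM in NCsh libraries, and Rpph1, the RNA of RNase P, at 1.33 to 2.04 RPKM in TMBIM6sh and 1.08 to 2.16 RPKM in NCsh libraries, which overlap as well.

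**Figure D5:**
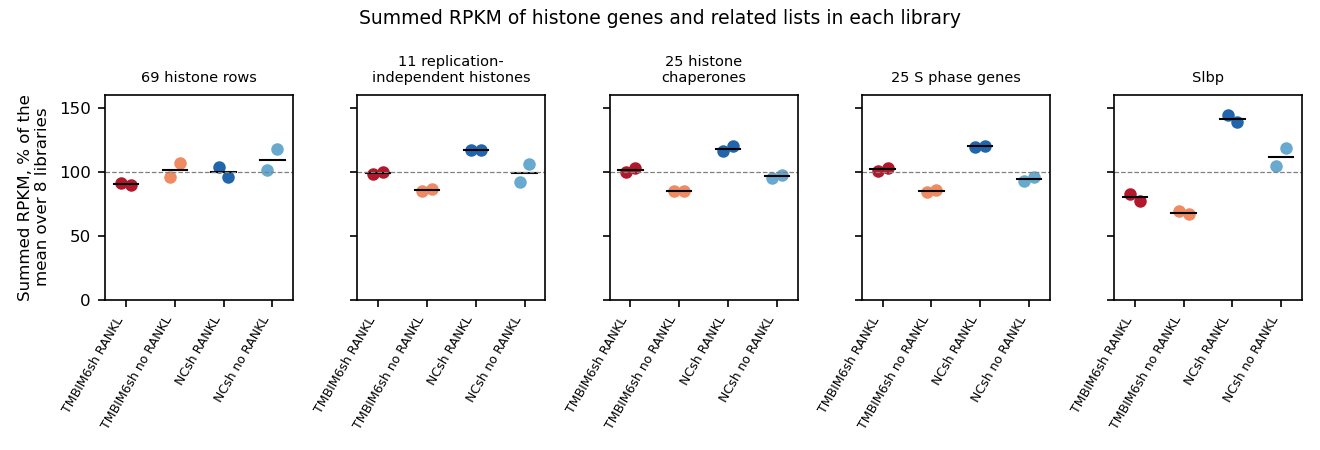
Summed RPKM in each library as a percentage of the mean over the 8 libraries (vertical axis from 0), for the 69 histone rows, 11 replication-independent histone genes, 25 histone chaperones, 25 S phase genes and Slbp alone; points are libraries and bars are group means. The S phase sum is 100 to 103% in TMBIM6sh with RANKL and 84.0 to 85.5% without, while the histone rows there are at 89.7 to 91.2% with RANKL and 95.3 to 107% without. In NCsh the S phase sum is 119.5 to 119.8% with RANKL and 92.2 to 95.4% without. The histone rows in NCsh overlap, at 95.4 to 103.5% with RANKL and 100.8 to 117.3% without.

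The S phase genes summed to 571 and 586 RPKM in TMBIM6sh with RANKL against 478 and 487 RPKM without, and to 680.0 and 682 RPKM in NCsh with RANKL against 525 and 543 RPKM without. In both hairpins the libraries with RANKL were above those without. For the 69 histone rows the sums were 64.6 and 63.5 RPKM in TMBIM6sh with RANKL against 67.5 and 75.6 RPKM without, and 73.3 and 67.6 RPKM in NCsh with RANKL against 71.4 and 83.1 RPKM without. The libraries with RANKL were lower in TMBIM6sh and overlapped in NCsh. The 60 rows not tested went the other way under both hairpins. They summed to 9.68 and 8.55 RPKM in TMBIM6sh with RANKL against 8.32 and 7.85 RPKM without. In NCsh they summed to 13.7 and 14.8 RPKM with RANKL against 12.6 and 10.7 RPKM without. Over the 51 of them with 1 copy, libraries with and without RANKL overlapped under both hairpins.

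Among genes transcribed away from each other, 15 pairs of rows had starts at most 500 bases apart, all of an H2A and an H2B gene. Since some rows overlap, these pairs stand for 12 separate places. There were 3 pairs that held a tested gene, and none held 2. Hist1h2bc and Hist1h2ac start 239 bases apart, and held 2894 and 9 tags over the 8 libraries, a mean of 18.5 RPKM against 0.0841 RPKM. Hist3h2a and Hist3h2bb-ps, an H2B pseudogene, start 172 bases apart and held 823 tags and 1 tag. Hist2h2ac and Hist2h2be start 191 bases apart and held 147 and 380 tags, over rows of 465 and 2664 bases. Per length of its row Hist2h2ac was the higher in all 8 libraries, by 1.44 against 0.655 RPKM, while by tags Hist2h2be was. For both genes of that pair, the TMBIM6sh libraries lay below the NCsh libraries in each state.

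The stretch before Hist3h2a is shown because its last 172 bases lie between the starts of both genes, of which the neighbour had almost no tags, while the bases before them belong to the row of that neighbour. It is 250 bases long, from RefSeq on GRCm38.p6, chr11:58954435-58954684 on the + strand, ending at the base before the start of Hist3h2a, and capitals mark the motif CCAAT, searched on both strands, where ATTGG is CCAAT on the other strand.
Hist3h2a: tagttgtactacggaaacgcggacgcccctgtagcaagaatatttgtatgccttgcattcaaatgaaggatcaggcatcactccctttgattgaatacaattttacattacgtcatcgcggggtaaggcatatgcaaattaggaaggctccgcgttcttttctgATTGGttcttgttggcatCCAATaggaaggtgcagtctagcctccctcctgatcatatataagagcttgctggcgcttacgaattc
A promoter window of the same kind, with 50 bases after the start added, was found for 62 of the 69 genes, and for 56 it began within 100 bases of the start of the row. CCAAT was present on either strand in 85.7% of these 56, against 37.4% of 32851 promoters of all genes, TATAAA in 60.7% against 13.6%, and the octamer ATTTGCAT, the site of OCT1 in H2B promoters, in 25% against 1.74%. Among the 8 tested genes with such a window, CCAAT was present in 5, TATAAA in 3 and ATTTGCAT in 4. Among the 48 others CCAAT was present in 43, TATAAA in 31 and ATTTGCAT in 10. A match of letters is a description and not a site that was measured.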

How the data were processed

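RNA sequencing of 8 libraries of mouse bone marrow-derived macrophages was deposited as 1 table. Per the file headers, the authors made RPKM values with HOMER's analyzeRepeats on RefSeq genes of mm10, with tags over exons counted on both strands and isoforms condensed to 1 row per gene. Its column heads read FPKM although RPKM is what the command gives. HISAT2 and DESeq2 are named in the submitters' processing notes, with no version. Whole tags were recovered from the steps of the values: in each library 415 to 454 low values were checked, and 100% lay within 0.1 tags of a whole number. Counting error is all that the limit of 3 tags for a value of 0 covers. No table column belonged to another study.

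Values were used as log2(RPKM + 1), which understates changes of low genes. Rows with at least 1 RPKM in at least 2 libraries (11040) were fitted with limma 3.58.1 in R 4.3.3, with 1 mean per group, 4 residual degrees of freedom, an intensity trend and Benjamini-Hochberg adjustment over all of them, at a threshold of 0.05. The fit was tested on simulated data. Python 3 scripts searched sequences in GENCODE M21 transcripts and RefSeq promoters. The histone genes and the lists were chosen with earlier results of these data known. Per-library values are given for the 14 rows with the highest means and for called members, and other genes are Slbp, Npat and, per list and comparison, up to 4 with the smallest p. The other genes named are Pcna, S100a8, S100a9, Lyz2, Spi1, Adgre1, Col1a1, Cd79b, Rnu7 and rows of marker lists, chosen after their values were seen. Alternatives were a pseudocount of 0.1, no filter, median-ratio scaling, no trend, a replicate block, fits of 4 libraries and leaving out each library. Some marker genes of the lists are not reported here.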

Additional observations from a re-analysis of the deposited data

Results flagged for a closer look

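Cdk2, the kinase that works with cyclin E at the start of S phase, is listed because its libraries moved in opposite directions with RANKL under the 2 hairpins. It had 10.9 and 10.2 RPKM in TMBIM6sh with RANKL against 11.3 and 11.5 RPKM without (log2 difference −0.10, adjusted p = 0.407), and 17.6 and 17.8 RPKM in NCsh with RANKL against 13.1 and 13.996 RPKM without (log2 difference 0.36, adjusted p = 0.00694). The interaction in limma was −0.46 with an adjusted p of 0.510, so the difference between hairpins did not pass.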

How the results depend on the processing

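The median-ratio scaling factors and a pseudocount of 0.1 changed no histone call. The count of called histone genes for RANKL in NCsh libraries was 1 and became 0 without the intensity trend, 0 with a replicate block and 0 in a fit of the 4 libraries alone. Between hairpins with RANKL it was 2 and became 6 with no filter and 4 in the fit of 4 libraries, and without RANKL it was 1 and became 4 with no filter, 2 without the trend and 0 in the fit of 4 libraries. Dropping the filter added the 53 histone rows that had a tag in some library. Of the 18292 genes then fitted, 796 were called higher and 1727 lower with RANKL, and 872 and 1116 without. Of 11040 genes, the fit of 4 libraries called 977 higher and 2083 lower with RANKL, and 864 and 1161 without. Without the trend 1046 were called higher and 1411 lower without RANKL. The calls added without the filter, all lower in TMBIM6sh, include Hist2h2be and the overlapping Hist2h2aa1 and Hist2h2aa2 in both states, Hist1h4a and Hist1h3g with RANKL and Hist1h2bm without RANKL. Those of Hist1h1c with RANKL and of Hist3h2a in both comparisons were lost there, and Hist1h2bm was lower with RANKL in NCsh. Hist1h3g held 3 tags over the 8 libraries and Hist1h2bm held 5. Their calls set groups with 0 tags against groups with 1 or 2 tags per library, so they carry little weight. With no filter the median difference was 0.0027 for RANKL in TMBIM6sh and −0.0604 between hairpins without RANKL. Leaving out 1 library gave 0 to 1 calls for RANKL in either hairpin, 1 to 3 between hairpins in either state and 0 for the interaction. The medians then ran from −0.29 to 0.0513 for RANKL in TMBIM6sh, −0.26 to −0.11 for RANKL in NCsh, −0.34 to 0.0217 and −0.41 to 0.0490 between hairpins with and without RANKL, and −0.14 to 0.25 for the interaction. Without rows of more than 1 copy, the summed RPKM in TMBIM6sh with RANKL was 62.1. The sums of single libraries were 63.5 to 64.6 in TMBIM6sh with RANKL, 67.5 to 75.6 without, 67.6 to 73.3 in NCsh with RANKL and 71.4 to 83.1 without. Of 666 settings of single histone differences, 18 lost a call, 18 gained one and 0 reversed. Same-numbered libraries did not deviate together (r −0.065 to 0.062), so the numbers are not read as pairs. At 55 to 147 tags over 8 libraries, Hist1h2be, Hist1h4m, Hist1h4h and Hist2h2ac limit what differences can be seen. The cause of these shifts was not tested.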
